A study of Mus musculus with 5 samples.

Results

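Aminoacyl-tRNA synthetase genes were compared between sorted mouse leukaemia cells and sorted normal myeloid cells. The genes were chosen by name from the expression table, 35 of its 34240 features, of which 20 encode cytosolic and 15 mitochondrial enzymes. The leukaemia group (AML, acute myeloid leukaemia) held 2 libraries of Mac+Gr1+B220+ cells, with bone marrow and spleen given as their tissue. The disease had been induced by CNTRL-FGFR1, in which the centrosomal protein centriolin is fused to the receptor tyrosine kinase FGFR1. The normal group held 3 libraries of Gr1+Mac1+ myeloid cells from bone marrow. All mice were BALB/c and aged 10 to 12 months. Spleen and the B220 marker belong to the AML group alone, so tissue and sort cannot be told apart from leukaemia. No label says whether libraries of a group came from separate or pooled animals, so p-values measure the spread between these samples, which may be technical.

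Each aminoacyl-tRNA synthetase joins an amino acid to its tRNAs and thereby supplies the ribosome with charged tRNA. Most amino acids are served by a cytosolic enzyme and by a separate mitochondrial enzyme, both encoded in the nucleus. In animal cells several of the cytosolic enzymes are held together in the multisynthetase complex, while the others act outside it. The kinase GCN2 senses uncharged tRNA, and the transcription factor ATF4, made when GCN2 is active, is known to raise many cytosolic synthetase genes.

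The values were taken to be RPKM, judged from the numbers alone since no label or header names the unit. RPKM are read numbers divided by exon length and by sequencing depth, a unit per length that lets levels be compared between genes. RPKM totals were 524000 and 638584 in AML libraries and 472234 to 615921 in normal libraries. From the steps between low values, best trial depths, in units of 1e6 mapped reads, were 35.75 and 52.5 for AML libraries 1 and 2, and 33.25, 76.5 and 110.5 for normal libraries 1 to 3. That of normal library 3 rested on 35 values. At these depths 62.5% to 80% of the low values fell on whole read numbers, against 23.2% to 45.4% by chance at a depth not picked. Each depth was picked for the largest excess over chance, so that excess does not test it. The lowest synthetase, Ears2, then had about 67 and 105 reads in AML cells and 32 to 75 reads in normal cells. This takes the 2046 bases of its longest coding transcript, and the 5152 bases of its merged exons would give larger read numbers. Summed neutrophil markers (9 genes, S100a8, S100a9 and Ltf among them) stood at 172124 and 238757 RPKM in AML cells and at 189791 to 297784 RPKM in normal cells. That sum was carried by S100a8, S100a9, Ngp and Camp, which were not called, while 4 of the 9 were called lower in AML cells, Mmp9 by 9.31-fold, Cxcr2 by 7.91-fold, Mmp8 by 6.85-fold and Ltf by 2.61-fold. Of other marker lists, 6 primary granule and progenitor genes summed to 9819 and 10775 RPKM in AML cells, against 264 to 381 RPKM in normal cells. Monocyte markers (6 genes) summed to 34.5 and 36.6 RPKM in AML cells, against 498 to 839 RPKM in normal cells. T and NK cell markers (7 genes) summed to 570.1 and 613 RPKM in AML cells, against 54.8 to 62.3 RPKM in normal cells. Of these Cd3e, Cd3g and Nkg7 were called higher and Cd3d lower (16.9 RPKM on average in AML cells, against 42.0 RPKM in normal cells), while Cd2, Lck and Klrb1c were under 1 RPKM in every library. B cell markers (6 genes) summed to 10.1 and 12.2 RPKM in AML cells, against 10.9 to 16.9 RPKM in normal cells. Erythroid markers (5 genes) spanned 114 to 125 RPKM in AML and 100.1 to 1500 RPKM in normal libraries. Eosinophil and basophil markers (5 genes) spanned 115 to 236 RPKM in AML and 12.1 to 683 RPKM in normal libraries, and megakaryocyte markers (3 genes) 0.7 to 1.4 RPKM in AML and 1.6 to 11.7 RPKM in normal libraries. Normal library 3 held the lowest normal sum for erythroid, eosinophil and basophil, and megakaryocyte markers. There Hba-a1 had 87.4 RPKM, against 1332 and 856 RPKM in normal libraries 1 and 2, and Prg2 had 3.8 RPKM, against 584 and 604 RPKM. No marker was at 0 in every library, and the part of these cells in the synthetase results was not tested. In bulk RNA, fewer cells of a type and less RNA per cell cannot be told apart.

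Some synthetase genes of both sets were higher in AML cells. In limma no member was called lower, nor had any a lower value at an unadjusted p under 0.05. Of the 20 cytosolic genes 5 rose, namely Vars, Mars, Cars, Tars and Farsa, with 2.30-fold to 2.88-fold more RPKM in AML cells. Of the 15 mitochondrial genes 8 rose, namely Cars2, Nars2, Tars2, Sars2, Yars2, Pars2, Vars2 and Aars2, by 2.04-fold to 5.65-fold. Calls had an adjusted p under 0.05 in limma, here a linear model fitted to log2(RPKM + 1) of the 10166 features that reached 1 RPKM in 2 or more libraries, with Benjamini-Hochberg adjustment. Fold changes on that scale understate the change of low genes. Over all tested genes 31% were called, 19.3% higher and 11.8% lower in AML cells, against 25% of the cytosolic and 53.3% of the mitochondrial genes called higher. The median log2 fold change was 0.47 for the cytosolic genes and 0.67 for the 14 tested mitochondrial genes, against 0.12 over all tested genes. Aars2, Nars2, Pars2 and Wars2 passed the filter on low values only through their AML libraries, so their being tested is itself tied to a higher AML value, and Ears2 did not pass. Without a filter 4 cytosolic and 7 mitochondrial genes were called, Ears2 newly among the latter, against 1788 of 17466 features called higher.

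Both AML libraries lay above all 3 normal libraries for 13 of 20 cytosolic and 13 of 15 mitochondrial genes, against 34.8% of all tested genes, and below them for none, against 22.1%. Counts of calls depended on the libraries used, over all genes as well as in these sets. Over all genes, too, calls were fewer without either AML library. Without AML library 2 there were 2 cytosolic calls (Mars and Vars) and 1 mitochondrial call (Nars2, with 12 genes tested), and without AML library 1 there were 3 of each. Without normal library 1 there were 3 and 4, Lars2 newly among the 4, against 1139 of 9948 tested genes called higher. Without normal library 2 there were 3 and 4, against 955 of 9933. Without normal library 3 there were 5 and 8, against 2757 of 10110. Scaling each library to its upper quartile left 4 cytosolic and 3 mitochondrial calls. Over all genes it called 1128 higher and 1687 lower, and median-of-ratios scaling called 1452 higher and 1534 lower, against 1959 higher and 1196 lower on the deposited scale.

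**Figure D1:**
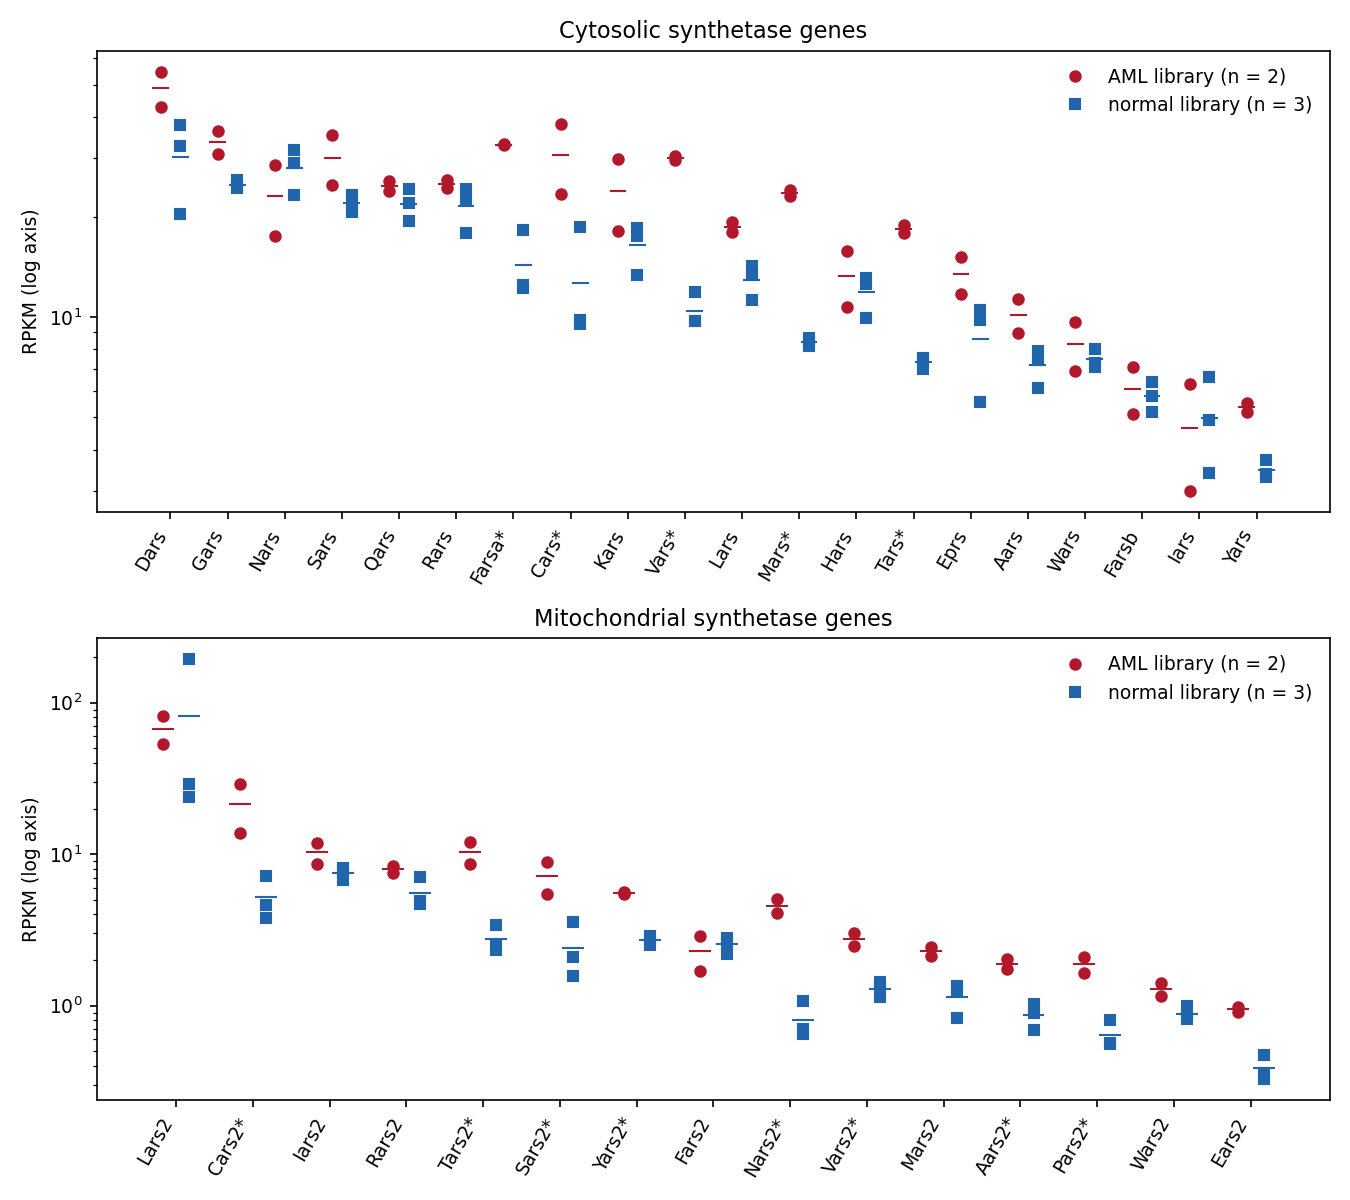
RPKM of the 20 cytosolic (top) and 15 mitochondrial (bottom) synthetase genes on a log axis, in order of mean level. Circles are the 2 AML libraries and squares the 3 normal libraries, short lines are group means, and an asterisk marks genes called higher. Lars2 of normal library 1, at 193 RPKM, stands far above the other normal libraries.

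**Figure D2:**
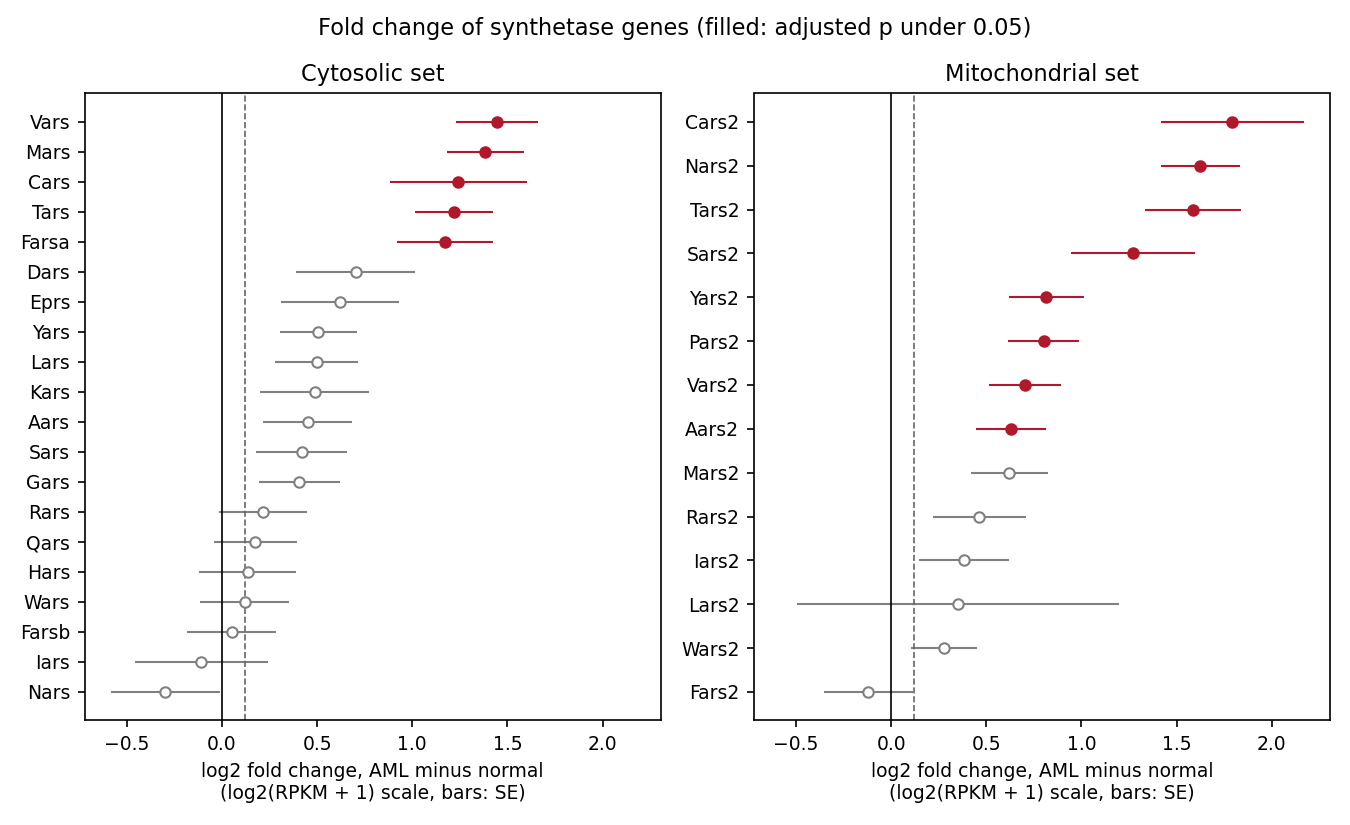
Log2 fold change (AML minus normal, on the log2(RPKM + 1) scale) of the tested synthetase genes, with SE as bars. Filled points passed an adjusted p of 0.05, and the dashed line is the median of all tested genes, 0.12. Nars, Iars and Fars2 lie below 0, and under upper quartile scaling Farsb, Hars, Qars, Rars and Wars do so too.

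Vars, Mars and Tars were the cytosolic genes with the most stable rises. Vars, the valyl-tRNA synthetase that is known to associate with elongation factor 1 (chromosome 17, 35137932 to 35153267, mm9), had 30.4 and 29.8 RPKM in AML libraries 1 and 2. It had 11.9, 9.73 and 9.73 RPKM in normal libraries 1 to 3. Both AML libraries were more than double any normal library, and the log2 fold change was 1.45 (SE 0.22, limma adjusted p = 0.0039). Mars, the methionyl-tRNA synthetase of the multisynthetase complex (chromosome 10, 126733277 to 126748842), had 23.1 and 24.2 RPKM in AML libraries, against 8.42, 8.21 and 8.66 RPKM in normal libraries. The libraries of each group lay close together, and the log2 fold change was 1.38 (SE 0.20, limma adjusted p = 0.0037). Tars, the threonyl-tRNA synthetase (chromosome 15, 11313418 to 11329413), had 17.9 and 18.9 RPKM in AML libraries and 7.56, 7.48 and 6.96 RPKM in normal libraries. Its groups were as clearly apart, with a log2 fold change of 1.22 (SE 0.21, limma adjusted p = 0.0062). Mars and Vars passed the test under all 13 alternative settings, with adjusted p up to 0.046 for Mars and 0.045 for Vars. Tars missed it without AML library 2 alone (adjusted p = 0.063).

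Farsa and Cars also rose, with normal library 3 nearest to the AML libraries. Farsa encodes the catalytic alpha subunit of the cytosolic phenylalanyl-tRNA synthetase (chromosome 8, 87380888 to 87393156). It had 32.8 and 33.2 RPKM in AML libraries, against 12.5, 12.3 and 18.2 RPKM in normal libraries (log2 fold change 1.17, SE 0.25, limma adjusted p = 0.014). Farsb, the beta subunit that pairs with it, had 7.1 and 5.1 RPKM in AML libraries and 5.8, 6.4 and 5.2 RPKM in normal libraries, and the groups overlapped. The ratio of Farsa to Farsb was 4.63 and 6.51 in AML libraries and 2.15, 1.92 and 3.51 in normal libraries. Cars, the cysteinyl-tRNA synthetase (chromosome 7, 150743135 to 150785995), had 23.5 and 38.1 RPKM in AML libraries and 9.8, 9.56 and 18.6 RPKM in normal libraries. Its log2 fold change of 1.24 had a wider error (SE 0.36, limma adjusted p = 0.039). The call of Farsa was lost without either AML library, normal library 1 or normal library 2 (adjusted p up to 0.099), and without both of these normal libraries (0.24). That of Cars was lost in the same fits, under both other scalings and with no filter (0.38 without both normal libraries, up to 0.25 otherwise).

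Of the 8 enzymes of the multisynthetase complex, Mars alone was called, against 19.3% of all tested genes called higher. Dars, the aspartyl-tRNA synthetase and the cytosolic gene with the highest mean level, had 54.7 and 42.9 RPKM in AML libraries, against 32.6, 37.9 and 20.5 RPKM in normal libraries (log2 fold change 0.70, SE 0.31, limma adjusted p = 0.13). Eprs, the fused glutamyl-prolyl enzyme, had 15.2 and 11.8 RPKM in AML libraries and 10.5, 9.8 and 5.54 RPKM in normal libraries (adjusted p = 0.17). Lars, for leucine, had 18.0 and 19.3 RPKM in AML libraries, against 13.4, 14.2 and 11.3 RPKM in normal libraries (adjusted p = 0.12). In these 3 genes every AML library lay above every normal library, by less than the test required.

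Kars, the lysyl-tRNA synthetase whose gene serves both compartments, had 29.8 and 18.2 RPKM in AML libraries and 17.5, 18.6 and 13.4 RPKM in normal libraries. Qars, for glutamine, had 25.7 and 24.0 RPKM in AML libraries, against 19.5, 22.1 and 24.2 RPKM in normal libraries. Rars, for arginine, had 24.5 and 25.8 RPKM in AML libraries, against 18.0, 22.7 and 24.3 RPKM in normal libraries. Groups overlapped for Kars and Qars and came close to doing so for Rars. Iars, for isoleucine, had 6.3 and 3.0 RPKM in AML libraries and 6.6, 4.9 and 3.4 RPKM in normal libraries, a log2 fold change of -0.11 (SE 0.35, limma adjusted p = 0.84). The scaffold genes of the complex, Aimp1, Aimp2 and Eef1e1, were not called either in limma, and 0 of these 3 had an unadjusted p under 0.05. Aimp1, the scaffold with the highest level, had 22.8 and 26.8 RPKM in AML libraries and 14.8, 18.0 and 19.1 RPKM in normal libraries (log2 fold change 0.50, SE 0.23, limma adjusted p = 0.14).

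Among the cytosolic enzymes outside the complex, Gars and Nars had the highest mean over all 5 libraries. Gars, the glycyl-tRNA synthetase whose gene also gives the mitochondrial form, had 36.2 and 30.9 RPKM in AML libraries, against 24.8, 24.4 and 25.9 RPKM in normal libraries (log2 fold change 0.41, SE 0.21, limma adjusted p = 0.19). Nars, for asparagine, had 28.7 and 17.5 RPKM in AML libraries, against 29.1, 31.7 and 23.3 RPKM in normal libraries. Its log2 fold change of -0.30 (SE 0.29, limma adjusted p = 0.45) was the lowest of the cytosolic set. Aars, Sars and Yars, for alanine, serine and tyrosine, had AML values above all normal values without being called (adjusted p = 0.18, 0.22 and 0.098 in limma). Hars and Wars, for histidine and tryptophan, had overlapping groups and log2 fold changes of 0.13 and 0.12. Under upper quartile scaling 7 cytosolic genes had a log2 fold change below 0 (Nars, Iars, Farsb, Hars, Qars, Rars and Wars), and under median-of-ratios scaling 5, without Qars and Rars. The 15 cytosolic genes not called had log2 fold changes of -0.30 to 0.70 and adjusted p of 0.098 to 0.89 in limma.

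Promoters of cytosolic genes were searched for 2 motifs on both strands, since several members rose. The windows ran from 250 bases before to 50 bases after each start in RefSeq (build GRCm38.p6), and 27 of the 35 members had one. Cars, Hars, Lars, Nars, Rars, Vars, Wars and Pars2 had none. The called genes Vars, Cars and Pars2 were therefore not searched. The motif TGATGNAA is the C/EBP-ATF element through which ATF4 and C/EBP proteins are known to act, and CACGTG is the E box bound by MYC and related factors. The first was found in 5 of 13 cytosolic promoters (Aars, Gars, Iars, Tars and Yars) and 0 of 14 mitochondrial ones, against 3.97% of 32851 promoters of all genes. The second was found in 4 of 13 cytosolic promoters (Aars, Farsb, Iars and Tars) and 1 of 14 mitochondrial ones (Ears2), against 7.15% of all promoters. Of the 5 cytosolic genes with the C/EBP-ATF letters, Tars was called higher, and the other 4 were not called. A match is a stretch of letters and not a measured site. A match to TGATGNAA or its reverse complement is shown for each of these genes in capitals, with 10 bases on either side on the gene's strand.
Aars, chr8:111033841-111033868, plus strand: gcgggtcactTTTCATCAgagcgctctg
Gars, chr6:55037961-55037988, plus strand: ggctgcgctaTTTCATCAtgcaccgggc
Iars, chr13:49682127-49682154, plus strand: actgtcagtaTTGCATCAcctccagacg
Tars, chr15:11399656-11399683, minus strand: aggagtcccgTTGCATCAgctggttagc
Yars, chr4:129189896-129189923, plus strand: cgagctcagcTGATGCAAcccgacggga

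The matches to the E box, which do not overlap those of the other motif, are shown in the same way.
Aars, chr8:111033686-111033711, plus strand: tcaaccctgtCACGTGacactccatg
Farsb, chr1:78488921-78488946, minus strand: agacaggcatCACGTGagacagccca
Iars, chr13:49682051-49682076, plus strand: ccaatcgccaCACGTGttgtttgtag
Tars, chr15:11399624-11399649, minus strand: cgcctgtggcCACGTGgcgcacgcgc
Ears2, chr7:122067050-122067075, minus strand: cgaaggagccCACGTGtgtgtttcta

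The whole window is shown for Tars, the called gene that held both motifs, with both in capitals, and was chosen after the motif counts were seen.
Tars, chr15:11399609-11399908, minus strand: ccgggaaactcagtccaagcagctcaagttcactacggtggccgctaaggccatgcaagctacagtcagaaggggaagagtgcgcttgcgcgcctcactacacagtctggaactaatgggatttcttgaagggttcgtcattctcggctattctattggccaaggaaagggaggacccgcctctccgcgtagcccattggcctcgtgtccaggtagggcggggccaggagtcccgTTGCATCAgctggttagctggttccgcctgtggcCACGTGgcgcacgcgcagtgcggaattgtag

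Mitochondrial synthetase genes stood at lower levels than cytosolic ones, with a median over genes of 4.56 RPKM for AML means and 2.41 RPKM for normal means, against 23.4 RPKM for AML means and 12.3 RPKM for normal means of the cytosolic set. Nars2, the mitochondrial asparaginyl-tRNA synthetase (chromosome 7, 104100015 to 104213271), showed the largest fold in RPKM. It had 5.03 and 4.09 RPKM in AML libraries, against 0.7, 0.65 and 1.07 RPKM in normal libraries, 5.65-fold more. All AML values were more than 3 times any normal value, and the log2 fold change was 1.62 (SE 0.21, limma adjusted p = 0.0022). It passed in all 12 alternatives that tested it. Tars2 for threonine (chromosome 3, 95543899 to 95558900) had 8.61 and 12.1 RPKM in AML libraries and 2.54, 2.33 and 3.41 RPKM in normal libraries (log2 fold change 1.59, SE 0.25, limma adjusted p = 0.0049). Cars2 for cysteine (chromosome 8, 11514021 to 11550771) had 13.8 and 28.8 RPKM in AML libraries, against 3.81, 4.65 and 7.18 RPKM in normal libraries. Its log2 fold change of 1.79 (SE 0.37, limma adjusted p = 0.013) was the largest of both sets, although the AML libraries differed about 2-fold between themselves. Without AML library 2 Tars2 and Cars2 missed the threshold (adjusted p = 0.056 and 0.1), and they passed in the other 12 alternatives.

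Sars2, Yars2, Pars2, Vars2 and Aars2 also rose. Sars2 for serine had 5.45 and 8.9 RPKM in AML libraries and 1.56, 2.09 and 3.59 RPKM in normal libraries (log2 fold change 1.27, SE 0.32, limma adjusted p = 0.026). Yars2 for tyrosine had 5.63 and 5.47 RPKM in AML libraries and 2.76, 2.89 and 2.52 RPKM in normal libraries (0.82, SE 0.20, adjusted p = 0.022). Within each group the Yars2 values were nearly level. Pars2, the mitochondrial enzyme for proline, had 2.11 and 1.63 RPKM in AML libraries, against 0.56, 0.8 and 0.57 RPKM in normal libraries (0.80, SE 0.19, adjusted p = 0.018). Vars2 for valine had 2.49 and 3.0 RPKM in AML libraries and 1.31, 1.14 and 1.44 RPKM in normal libraries (0.70, SE 0.19, adjusted p = 0.032). Aars2 for alanine, the weakest call, had 2.03 and 1.75 RPKM in AML libraries and 0.69, 0.9 and 1.02 RPKM in normal libraries (0.63, SE 0.19, adjusted p = 0.04). In all 5 genes both AML libraries lay above every normal library. Of the mitochondrial calls these depended most on the processing: Aars2 passed in 2 of the 12 alternatives that tested it, Sars2 in 5 of 13, Vars2 in 5 of 12, Yars2 in 7 of 13 and Pars2 in 7 of 10.

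The promoter windows of the 3 called genes with the largest log2 fold change, Cars2, Nars2 and Tars2, held neither motif and are shown in lower case throughout.
Cars2, chr8:11550722-11551021, minus strand: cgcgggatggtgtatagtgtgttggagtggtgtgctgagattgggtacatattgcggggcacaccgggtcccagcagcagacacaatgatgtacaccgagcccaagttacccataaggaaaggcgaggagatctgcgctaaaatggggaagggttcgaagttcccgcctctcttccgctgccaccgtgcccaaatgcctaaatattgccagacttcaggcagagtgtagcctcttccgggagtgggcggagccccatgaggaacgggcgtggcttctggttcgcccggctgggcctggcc
Nars2, chr7:96951277-96951576, plus strand: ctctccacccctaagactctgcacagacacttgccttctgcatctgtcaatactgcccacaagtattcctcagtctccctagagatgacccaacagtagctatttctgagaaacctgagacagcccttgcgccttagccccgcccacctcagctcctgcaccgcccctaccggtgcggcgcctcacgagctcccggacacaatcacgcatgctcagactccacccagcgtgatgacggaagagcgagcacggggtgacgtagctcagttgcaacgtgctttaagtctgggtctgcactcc
Tars2, chr3:95754928-95755227, minus strand: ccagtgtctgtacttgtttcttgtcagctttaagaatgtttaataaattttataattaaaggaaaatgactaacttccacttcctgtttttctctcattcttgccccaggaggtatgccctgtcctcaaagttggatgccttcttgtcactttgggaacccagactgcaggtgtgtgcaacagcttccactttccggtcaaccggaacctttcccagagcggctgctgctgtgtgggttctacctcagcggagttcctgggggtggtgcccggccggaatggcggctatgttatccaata

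Lars2, the mitochondrial leucyl-tRNA synthetase, was listed at 81.5 and 53.3 RPKM in AML libraries, against 193, 29.1 and 23.7 RPKM in normal libraries. Normal library 1 thus stood 6.65-fold above normal library 2, and none of the 10166 tested genes had a larger ratio of RPKM + 1 between these libraries. Group means of RPKM were lower in AML cells (67.4 ± 19.9, SD, n = 2, against 82.1 ± 96.5, SD, n = 3), while the log2 fold change was 0.35 (SE 0.85, limma adjusted p = 0.77). Without normal library 1 it was 1.30 (SE 0.34, adjusted p = 0.037), and without normal library 2 or 3 it was -0.05 or -0.19. Stretches of 125 and 196 bases near the 3′ end of its longest transcript aligned to chromosomes 16 and 19 at 95.2% and 94.9% identity, so reads there cannot be assigned with certainty. The part of those stretches in the value of normal library 1 was not tested. With Lars2 left out, the other 14 mitochondrial genes summed to 73.0 and 87.9 RPKM in AML libraries, against 31.8, 35.9 and 36.7 RPKM in normal libraries.

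The remaining mitochondrial genes were not called. Iars2 for isoleucine had 11.9 and 8.63 RPKM in AML libraries, against 7.88, 8.04 and 6.77 RPKM in normal libraries (log2 fold change 0.38, SE 0.24, limma adjusted p = 0.25). Mars2 for methionine averaged 2.28 ± 0.198 RPKM (SD, n = 2) in AML cells and 1.14 ± 0.276 RPKM (SD, n = 3) in normal cells and narrowly missed the threshold (limma adjusted p = 0.055). Rars2 and Wars2 had log2 fold changes of 0.46 and 0.28, with AML values above all normal values. Fars2 for phenylalanine had overlapping groups and a log2 fold change of -0.12. Ears2, which charges tRNA with glutamate, had 0.91 and 0.98 RPKM in AML libraries, against 0.47, 0.36 and 0.33 RPKM in normal libraries. Without a filter its log2 fold change was 0.49 (SE 0.12, limma adjusted p = 0.048). Hars2, a mitochondrial enzyme outside the chosen members, had a log2 fold change of 0.56 (SE 0.26) and was not called (limma adjusted p = 0.14).

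For 12 amino acids 1 cytosolic gene and 1 mitochondrial gene of matching name were both tested. Both rose for cysteine, threonine and valine, the mitochondrial gene alone was called for alanine, asparagine, serine and tyrosine, and the cytosolic gene alone for methionine. Neither was called for arginine, isoleucine, leucine and tryptophan. The log2 fold change of the mitochondrial gene was the larger in 9 of the 12, and the differences within an amino acid were not tested. Phenylalanine and proline were not counted, since the cytosolic enzyme has 2 genes for the first and is the fused Eprs for the second. For phenylalanine Farsa was called and Farsb and Fars2 were not, and for proline Pars2 was called and Eprs was not. The widest gap was that of asparagine, 1.62 for Nars2 and -0.30 for Nars. The level ratio of Nars2 to Nars was 0.175 and 0.234 in AML libraries, against 0.0241, 0.0205 and 0.0459 in normal libraries. For methionine, valine and leucine the order was turned, with 1.38 for Mars and 0.62 for Mars2, 1.45 for Vars and 0.70 for Vars2, and 0.50 for Lars and 0.35 for Lars2. The order for leucine hung on normal library 1, without which Lars had 0.52 and Lars2 1.30.

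**Figure D3:**
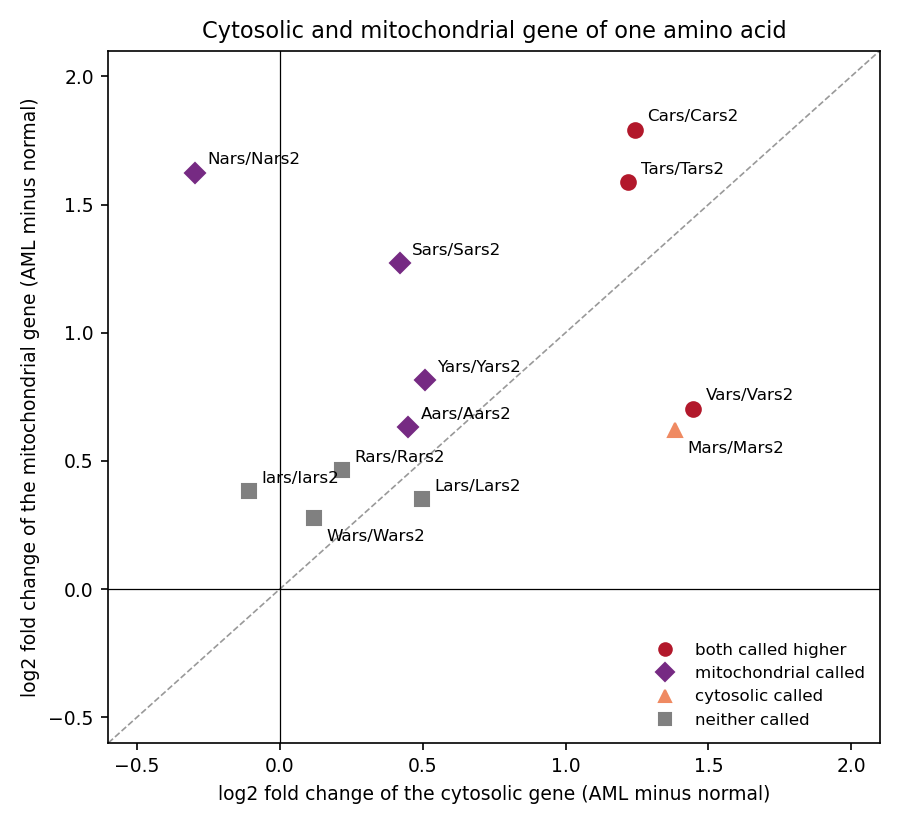
Log2 fold change (AML minus normal, on the log2(RPKM + 1) scale) of the cytosolic gene (x axis) and the mitochondrial gene (y axis) for the 12 amino acids with 1 matching gene each, with symbols for which gene was called. Points above the dashed line of equal change, 9 of 12, have the larger log2 fold change in the mitochondrial gene.

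Other genes of tRNA supply and mitochondrial translation also rose in part. Their counts with all libraries stand beside 19.3% of all tested genes called higher, 11.8% called lower and an all-gene median log2 fold change of 0.12. Calls over all genes were also fewer without either AML library, normal library 1 or normal library 2. Of 13 partners of mitochondrial tRNA charging and translation 4 rose and none fell, with a median log2 fold change of 0.57. They were Mtrf1l, a release factor, Mtif3, an initiation factor, Mtfmt, which formylates initiator methionyl-tRNA, and Qrsl1, a subunit of the amidotransferase that completes glutaminyl-tRNA after Ears2. Mtrf1l had 9.03 and 15.02 RPKM in AML libraries, against 1.66, 2.37 and 3.55 RPKM in normal libraries (log2 fold change 1.88, SE 0.32, limma adjusted p = 0.0067). Mtif3 had 15.3 and 16.5 RPKM in AML libraries and 5.1, 6.09 and 4.48 RPKM in normal libraries (1.45, SE 0.22, adjusted p = 0.0046). Of the 13 partners none was called by limma without AML library 2, where 3 had an unadjusted p under 0.05, and 2 were called without AML library 1, normal library 1 or normal library 2 and under either other scaling. Of 16 tested tRNA processing and export genes 6 rose and 1 fell, with a median of 0.69. Xpot, the nuclear export receptor of tRNA, had 17.3 and 11.7 RPKM in AML libraries, against 3.63, 3.18 and 2.24 RPKM in normal libraries (1.94, SE 0.27, adjusted p = 0.0033), and passed in all 13 alternatives. Rpp38 and Rpp14, subunits of the RNase P that trims tRNA precursors, rose by 1.27 and 1.18 on the log2 scale. Elac1, a tRNA 3′ end nuclease, fell by 0.97. The calls of this list numbered 1 without AML library 2, and 4 without AML library 1 or normal library 2. Of 4 tested proofreading and synthetase-like genes, Aarsd1, an editing protein for misacylated alanine tRNA, was the one that rose, with 13.4 and 16.7 RPKM in AML libraries and 6.48, 6.2 and 8.96 RPKM in normal libraries (0.97, SE 0.25, adjusted p = 0.026). It was not called under either other scaling or without AML library 1, AML library 2, normal library 1 or normal library 2.

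Genes of the amino acid deprivation response moved in both directions, with 6 higher and 7 lower of 27 tested and a median log2 fold change of 0.16. Among all tested genes 19.3% were called higher and 11.8% lower, and the median was 0.12, close to that of this list. Calls over all genes were also fewer without either AML library or normal library 2. Asns, the asparagine synthetase and a well-known target of ATF4, had 0.6 and 0.3 RPKM in AML libraries, against 12.9, 15.9 and 16.9 RPKM in normal libraries. It was 33.9-fold lower in AML cells (log2 fold change -3.48, SE 0.23, limma adjusted p = 0.00031) and passed in all 12 alternatives that tested it. Atf3, a stress-induced factor, had 0.3 and 0.6 RPKM in AML libraries and 7.7, 37.5 and 5.3 RPKM in normal libraries (-3.15, SE 0.72, adjusted p = 0.017). Shmt2, the mitochondrial serine hydroxymethyltransferase, had 44.3 and 57.4 RPKM in AML libraries, against 5.87, 6.65 and 6.69 RPKM in normal libraries (2.80, SE 0.23, adjusted p = 0.00045). Eif2ak4, which encodes the GCN2 kinase, rose by 0.93 (SE 0.18, adjusted p = 0.011). The other genes that rose were Slc1a5 and Slc38a2, amino acid transporters, Psph, of serine synthesis, and Chac1, a glutathione-degrading enzyme. Those that fell were Sesn2, Nupr1, Slc7a11, Ppp1r15a and Cebpg beside Asns and Atf3. Atf4 itself had 163 and 230.2 RPKM in AML libraries and 73.2, 133 and 198 RPKM in normal libraries, and its groups overlapped (log2 fold change 0.63, SE 0.43, adjusted p = 0.30). The calls of this list numbered 2 without AML library 2, 4 without AML library 1 and 6 without normal library 2.

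**Figure D4:**
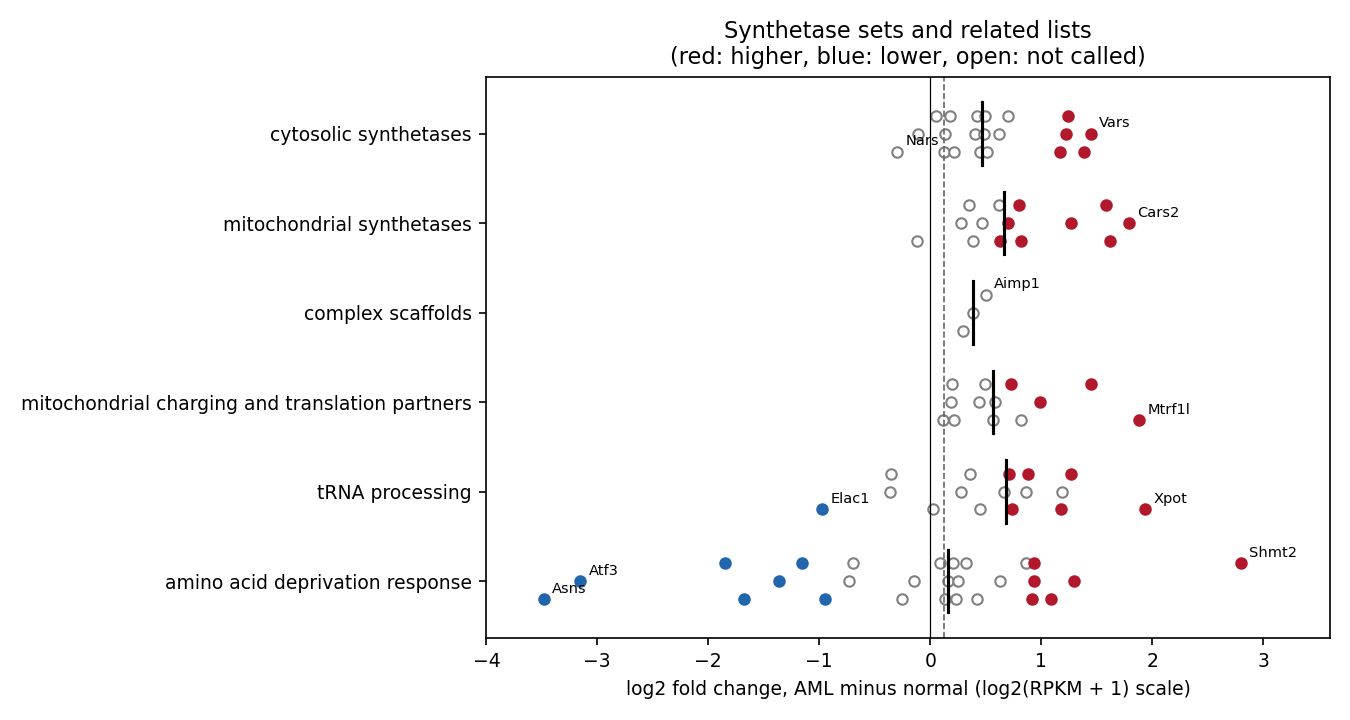
Log2 fold change (AML minus normal, on the log2(RPKM + 1) scale) of each tested gene of the synthetase sets and 4 related lists. Black bars are list medians and the dashed line is the median of all tested genes, 0.12. The deprivation response list spans -3.48 (Asns) to 2.80 (Shmt2), while both synthetase sets lie between -0.30 and 1.79.

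Features of the table and the annotation touched several members. Farsb, Iars, Nars, Wars, Fars2 and Lars2 were deposited with 1 decimal and the other 29 members with 2, and none of these 6 was called. Their log2 fold changes were -0.30 to 0.35, and Nars, Iars and Fars2 were the members below 0. In the other lists, genes called higher had 2 decimals, and those called lower had 1, except Ppp1r15a. The ratios of Farsa to Farsb and of Nars2 to Nars each set a gene with 2 decimals against a gene with 1. What the difference in decimals reflects is not given and was not tested. Rounding all values to 1 decimal left the same 5 cytosolic and 8 mitochondrial calls. Rounding changes values little and cannot show whether rows of both kinds were processed alike. Exons of 10 members overlapped those of another annotated gene, mostly on the opposite strand. The overlap was 304 of 5611 exon bases for Vars (5.42%), 211 for Cars (4.54%), 68 for Mars (1.99%, with Ddit3), 284 for Nars2 (6.74%) and 2018 for Iars2 (22.7%). No label or header says whether counting used strand, so reads in those bases cannot be assigned. Most of the Iars transcript, 2799 aligned bases, had a further copy on chromosome 1 at 93.2% identity.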

How the data were processed

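Total RNA of FACS-sorted cells was sequenced after TruSeq RNA library preparation, per the labels' protocols. The table held 1 column per library, matched to samples by title. The authors deposited values that were taken to be RPKM, judged from the numbers alone since the unit is not named. The submitters' processing notes name mm9 as build, while the sources used here do not give the aligner, the counter, the gene models or any filter. Depth was searched for over trial values, using low RPKM of single-exon genes.

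Features that reached 1 RPKM in 2 or more libraries were tested between AML and normal on log2(RPKM + 1) with limma 3.58.1 in R 4.3.3 (variance trend, robust, two-sided, Benjamini-Hochberg, 0.05). The procedure was tested on simulated data in which low means were raised and all genes had the same spread. That simulation does not cover calls of low genes. Folds and SD are of RPKM. Gene positions are from GENCODE M1 (mm9). Further genomic copies were found with minimap2 2.31, at 90% identity or more over at least 100 bases. Values per library are given for called members, complex enzymes and the 3 highest members of each set, and from other lists for up to 3 called genes with the largest change or the gene with the highest mean. Other genes were named after their values were seen, and protein sequences were not used here. Members and lists were chosen with earlier results of these data known. No list test was run, and some items are not reported here.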

Additional observations from a re-analysis of the deposited data

How the results depend on the processing

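Calls over all genes ranged from 674 to 4899 without any 1 library, and numbered 1335 without both normal libraries 1 and 2, where normal library 3 stands alone and is assumed to vary like the AML libraries. The same assumption holds for the lone AML library where the other was left out. Cytosolic calls ranged from 2 to 5 without any 1 library and were 3 without both normal libraries. Mitochondrial calls ranged from 1 to 8 and were 4, and they were 3 under upper quartile scaling, 5 under median-of-ratios scaling and 4 with a filter at 5 RPKM, which tested 7 genes. The cytosolic median of 0.47 ranged from 0.29 to 0.58 without any 1 library and was 0.19 under upper quartile and 0.32 under median-of-ratios scaling. These scalings shifted the median of all genes by -0.27 and -0.14. Relative to all genes the cytosolic median was 0.35 unscaled and 0.34 under both. The mitochondrial median of 0.67 was 0.48, 0.57, 0.82 (filter at 5 RPKM), 1.01 (pseudocount 0.1) and 0.82 (without both normal libraries), and ranged from 0.67 to 0.74 without any 1 library. Some of these settings tested fewer genes or held fewer libraries, and the causes of the moves were not tested. None of the 13 members called with all 5 libraries had a negative log2 fold change in any of the 13 alternatives, and Lars2 was the member that was called in some and negative in others. No paired analysis was possible because no label ties a library of one group to a library of the other, and at most 1 number in the titles recurs in both groups. With 2 AML libraries and no deposited counts, no counting interval was given.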
